A study of Mus musculus with 9 samples.

Results

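Mammalian carboxylesterases of the Ces1, Ces2 and Ces3 subfamilies were followed across 9 mouse liver arrays, 4 of control liver and 5 of hepatocellular carcinoma (HCC). The members were taken by gene symbol: 10 carboxylesterases were named, 9 of them (Ces1c, Ces1d, Ces1e, Ces1f, Ces1g, Ces2a, Ces2e, Ces3a and Ces3b) had a probe set annotated to that symbol alone, and Ces2c had none and was not analysed here. They are 9 of 19938 genes measured on probe sets of 1 gene. Total RNA was hybridised to Affymetrix Mouse Gene 1.0 ST arrays, 1 array per sample. The control livers came from monotransgenic mice with the Rosa26-lsl-NICD allele, which holds the intracellular domain of Notch1 (NICD) behind a stop cassette in the Rosa26 locus and stays silent without Cre. The tumours came from AFP-NICD mice, bitransgenic animals that carried the same allele together with Cre driven by the alpha-fetoprotein (AFP) promoter. Both groups had a hybrid 129 x C57BL/6 background and were 6 to 12 months old, with no treatment named. They share the Rosa26 allele and differ at least in Cre and in tumour tissue. Sex was not labelled, and Xist, a transcript of the inactive X chromosome of females, was high on 3 of 4 control arrays and 2 of 5 HCC arrays. Which animal each array came from was not labelled, so every error below is the spread between these arrays.

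Carboxylesterases are serine hydrolases that split esters, thioesters and amides. In the liver most of them sit in the lumen of the endoplasmic reticulum of hepatocytes, where they hydrolyse drugs and prodrugs and also stored triglyceride, diglyceride and cholesteryl ester, and some release their products toward very-low-density lipoprotein (VLDL) assembly. In the mouse the genes arose by tandem duplication and lie side by side in a Ces1 group and a Ces2 to Ces4 group on the same chromosome, so that paralogs are alike in sequence and a probe set can pick up RNA of a neighbouring copy.

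The 9 measured carboxylesterases had lower mean intensity in HCC than in control liver, by a median of -2.37 on the log2 scale, against a median of -0.033 over all 19938 genes. The lowering was uneven over the tumours. All 9 members lay below every control liver on HCC arrays 1 and 4, 6 did so on HCC array 2 and 7 on HCC array 3. On HCC array 5 only Ces2e did, by a small margin, while 4 members were above every control. Of all genes, 31.3%, 35.0%, 27.5%, 31.9% and 25.2% lay below every control on HCC arrays 1 to 5. The mean difference from the control average over the members was -3.87, -1.58, -1.40, -3.12 and 0.28 on HCC arrays 1 to 5. The members were selected on their HCC against control log2 intensities of these same arrays. Their changes are therefore a description, and nothing is read from the counts in this paragraph. All 9 had a negative change, as did 57.5% of all genes. In limma (adjusted p below 0.05 over all genes) 0 of 9 members passed, where 0.16% of all genes passed as lower and 0.858% as higher, and 6 of 9 had an unadjusted p below 0.05, where 9.85% of all genes did so in the lower and 10.5% in the higher direction. No member was free of overlap between the groups, against 3.86% of all genes that lay lower in HCC without overlap. The SD was larger in HCC than in control liver for 9 of 9 members, by 3.41 to 39.1 times, as it was for 67.9% of all genes. Among the tumours, HCC array 1 was the lowest for 8 of 9 members (19.6% of all genes) and HCC array 5 the highest for 7 of 9 (17.9%). In bulk tissue, fewer cells of a type and less RNA per cell cannot be told apart.

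**Figure D1:**
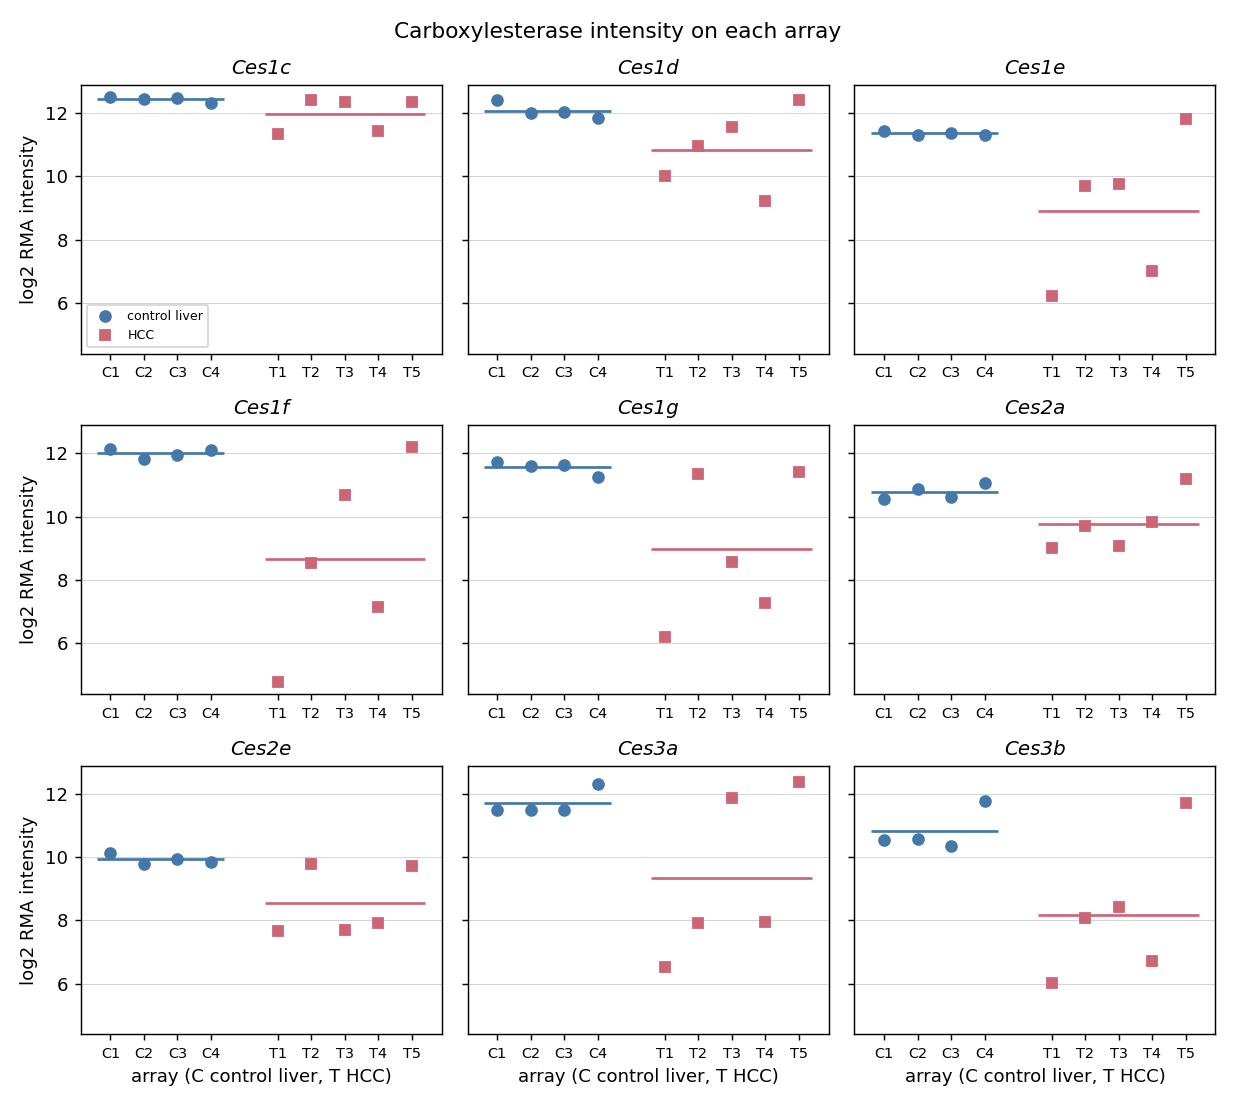
Log2 RMA intensity of the 9 measured carboxylesterases on each array, with control livers 1 to 4 as blue circles (C1 to C4), HCC arrays 1 to 5 as red squares (T1 to T5) and group means as horizontal lines. The control livers lie closer together than the tumours, least so for Ces3a and Ces3b, where C4 is above the other controls. The tumours spread widely, with T1 and T4 low and T5 at or near the control level for every member.

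Notch1 itself, the source of the NICD transgene, was 7.11 ± 0.13 (SD, n = 4) in control liver and 7.40 ± 0.16 (n = 5) in HCC (log2 change 0.29, limma adjusted p = 0.160), and its probe set may lie in part outside the NICD. Defining hepatocyte transcripts were high on every array: the log2 of the summed intensity of the 5 measured of 6 listed markers was 15.74 to 15.82 in control liver and 15.41, 15.50, 15.50, 15.49 and 15.77 on HCC arrays 1 to 5. It was thus below every control on HCC arrays 1 to 4 and within the control range on HCC array 5, the array on which the members were control-like. Albumin (Alb) was 13.47 to 13.66 in control liver and 13.02 to 13.56 in HCC. Tat, an enzyme of tyrosine breakdown, was 13.38 ± 0.089 and 12.50 ± 0.54 (log2 change -0.88, limma adjusted p = 0.111), with no overlap. It had the largest change of the 5 markers in the hepatocyte sum. Alb (-0.24), Trf (-0.14), Ttr (-0.082) and Apoa1 (-0.067) had smaller changes and overlapped between the groups, so the lower sum is not a like fall of all 5. The summed level of the 4 measured of 5 biliary and progenitor markers was 8.67 to 8.83 in control liver and 9.73 to 10.74 in HCC. Sox9, which marks bile duct and progenitor cells, was 9.08 on HCC array 5 against 7.23 to 7.54 in control liver, so the tumour with control-like carboxylesterases was above the controls for it. Sox9 had the highest HCC mean of the 4 and so weighs most in the sum. Epcam was also higher in HCC without overlap, but Krt19 and Krt7 overlapped between the groups. Krt19 was 6.01 and 6.04 on HCC arrays 3 and 4, against 5.79 to 6.21 in control liver. Krt7 was within its control range on HCC arrays 1 and 4. Both were above every control on HCC arrays 2 and 5. The summed endothelial, stellate and leukocyte markers overlapped between the groups. The stellate sum was lowest on HCC array 1 (10.35 against 11.74 to 12.07 in control liver), and the leukocyte sum was highest on HCC array 2 (12.08 against 10.47 to 11.49). The part of these cell types, and of the lower hepatocyte sum, in the results was not tested.

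Among the Ces1 enzymes, Ces1f had the largest difference of all members. It encodes a triglyceride hydrolase also called TGH-2. Its log2 intensity was 12.13, 11.83, 11.93 and 12.11 on control livers 1 to 4 and 4.78, 8.55, 10.68, 7.16 and 12.19 on HCC arrays 1 to 5. Every tumour but HCC array 5 was below all controls, and HCC array 5 was above them all. The group means were 12.00 ± 0.14 and 8.67 ± 2.91 (log2 change -3.33, SE 1.29, 10.04-fold). On HCC array 1 the intensity was 149-fold below the control mean, on HCC array 4 28.7-fold and on HCC array 3 2.49-fold. No detection call was used, so the size of folds that rest on low intensities is uncertain.

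Ces1e encodes egasyn, which holds beta-glucuronidase in the endoplasmic reticulum. It measured 11.42, 11.31, 11.38 and 11.30 in the control livers, the tightest control values of any member (SD 0.058), and 6.22, 9.68, 9.76, 7.01 and 11.81 on HCC arrays 1 to 5. HCC arrays 1 to 4 were below the controls and HCC array 5 was above them. The log2 change was -2.46 (SE 1.00, 5.50-fold) and the SD in HCC was 2.27, which is 39.1 times that in control liver.

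Ces1g, the enzyme first named Ces1 in the mouse, is known to limit lipid synthesis and secretion in the liver. Its values were 11.73, 11.60, 11.63 and 11.27 in control liver and 6.20, 11.36, 8.58, 7.28 and 11.42 in HCC. Here the tumours fell into separate levels, with HCC arrays 2 and 5 inside the control range and the other 3 well below it. The log2 change was -2.59 (SE 1.05, 6.02-fold).

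Ces1d is the triacylglycerol hydrolase (TGH) that mobilises stored triglyceride for VLDL. It measured 12.41, 12.01, 12.03 and 11.83 in control liver and 10.01, 10.96, 11.55, 9.22 and 12.40 in HCC. This was the member for which HCC array 4, and not HCC array 1, was lowest, 7.20-fold below the control mean. HCC array 5 lay within the control range, and the log2 change was -1.24 (SE 0.56, 2.37-fold).

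Ces1c encodes the esterase that mouse liver secretes into plasma. It had the smallest difference of the members, with 12.50, 12.45, 12.47 and 12.30 in control liver and 11.34, 12.41, 12.33, 11.42 and 12.36 in HCC. Only HCC arrays 1 and 4 were outside the control range, 2.13-fold and 2.01-fold below the control mean. The group means were 12.43 ± 0.087 and 11.97 ± 0.54 (log2 change -0.46, SE 0.25).

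Of the Ces2 enzymes, Ces2a, a diglyceride hydrolase, was 10.56, 10.88, 10.63 and 11.05 in control liver and 9.002, 9.71, 9.09, 9.84 and 11.17 in HCC. The first 4 tumours were below the controls within a narrow band, unlike the wide spread of Ces1e to Ces1g, and HCC array 5 was above the controls. The log2 change was -1.02 (SE 0.40, 2.02-fold). Without HCC array 5 it was -1.37 (SE 0.21, limma adjusted p = 0.0137). That array was the highest tumour for 7 of 9 members, so leaving it out takes away values close to or above control liver. Fits without it are given here and below as description only.

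Ces2e, an enzyme also known as Ces5, measured 10.12, 9.77, 9.95 and 9.85 in control liver and 7.65, 9.79, 7.70, 7.91 and 9.71 in HCC. HCC arrays 1, 3 and 4 formed 1 low level, 4.81-fold, 4.65-fold and 4.02-fold below the control mean, and HCC array 2 stayed within the control range. HCC array 5 was just under the lowest control. The log2 change was -1.37 (SE 0.49, 2.58-fold).

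The Ces3 enzymes, the microsomal esterase-31 proteins, had the widest spread of the members in control liver (SD 0.41 for Ces3a and 0.64 for Ces3b). Ces3a was 11.49 on each of control livers 1 to 3 and 12.31 on control liver 4. In HCC it was 6.54, 7.90, 11.86, 7.96 and 12.37. Tumours 3 and 5 were as high as the controls, and HCC arrays 1, 2 and 4 were 35.6-fold, 13.9-fold and 13.3-fold below the control mean. The log2 change was -2.37 (SE 1.17, 5.17-fold).

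Ces3b, its neighbour, was 10.55, 10.58, 10.34 and 11.76 in control liver and 6.02, 8.06, 8.43, 6.72 and 11.69 in HCC. Control liver 4 was again the highest control, and HCC array 5 was close to it. HCC array 3, which was control-like for Ces3a, was 5.21-fold below the control mean for Ces3b. The log2 change was -2.62 (SE 1.00, 6.16-fold). Without HCC array 5 it was -3.50 (SE 0.56, limma adjusted p = 0.0145), and Ces3b and Ces2a were then the 2 of 9 members that passed, where 2.79% of all genes passed as lower. In that comparison 5 of 9 members lay below all controls without overlap, against 7.8% of all genes. Both counts leave out the tumour with the most control-like values, and no member passed when any other single array was left out.

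**Figure D2:**
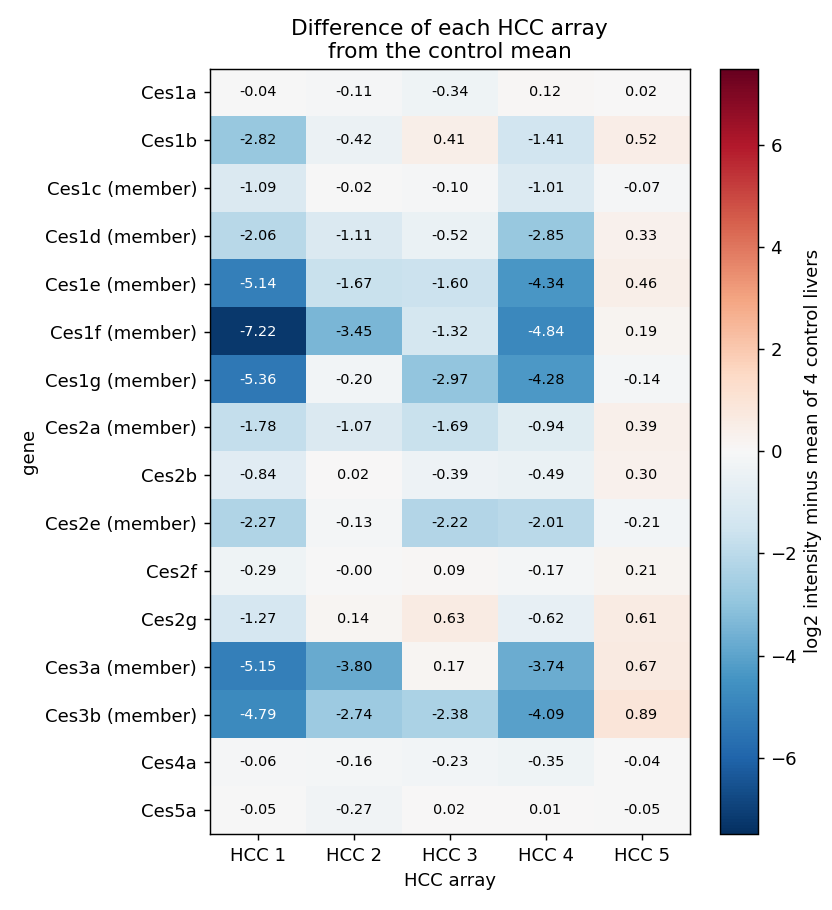
Log2 intensity of each HCC array minus the mean of the 4 control livers, for 16 carboxylesterase genes in rows and the 5 HCC arrays in columns, with blue for lower and red for higher. The members are low on HCC arrays 1 and 4, mixed on HCC arrays 2 and 3 and near 0 or above on HCC array 5. Ces1a, Ces2f, Ces4a and Ces5a, all of low intensity in control liver, are near 0 on all 5.

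HCC arrays 2 and 3 differed from each other by member more than by overall level. Ces3a was 3.96 and Ces1f 2.13 log2 units higher on HCC array 3 than on HCC array 2, whereas Ces1g (-2.78) and Ces2e (-2.09) were lower on it. Ces1d (0.58), Ces3b (0.36) and Ces1e (0.079) were slightly higher, and Ces2a (-0.62) and Ces1c (-0.081) lower. These are differences between 2 single arrays and have no replicate check. Those arrays also differed in sex-linked transcripts. Xist, transcribed from the inactive X chromosome of females, was high on control livers 1 to 3 (10.68 to 11.76) and HCC arrays 1 (11.14) and 2 (11.13). Its level was low on control liver 4 (4.83) and HCC arrays 3 to 5 (4.92 to 5.10). The Y-linked Eif2s3y measured 9.10 on control liver 4, 8.96 both on HCC array 3 and on HCC array 5, 6.05 on HCC array 4 and 3.42 to 3.86 on the arrays with high Xist.

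The comparison was therefore repeated within arrays of like Xist level, a choice made after seeing the data. Among arrays with high Xist (3 controls, HCC arrays 1 and 2) the log2 change was -5.30 for Ces1f, -4.27 for Ces3a, -3.45 for Ces3b, -3.43 for Ces1e, -2.87 for Ces1g, -1.66 for Ces1d, -1.33 for Ces2a, -1.22 for Ces2e and -0.60 for Ces1c. Ces3a passed in that fit (SE 0.41, limma adjusted p = 0.0336), the only member that did, where 0.567% of all genes passed as lower and 0.908% as higher. Among arrays with low Xist (control liver 4, HCC arrays 3 to 5) all 9 were negative too, from -2.81 for Ces3b to -0.26 for Ces1c, with -2.10 for Ces1f and -1.58 for Ces3a and larger errors. That subset has 1 control, which the fit takes to vary like the tumours. With Xist as a covariate over all 9 arrays the changes of Ces3a and Ces1f were -3.20 (SE 0.99) and -4.03 (SE 1.25), and no member passed in limma. Whether the change differed between the Xist levels was not tested.

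**Figure D3:**
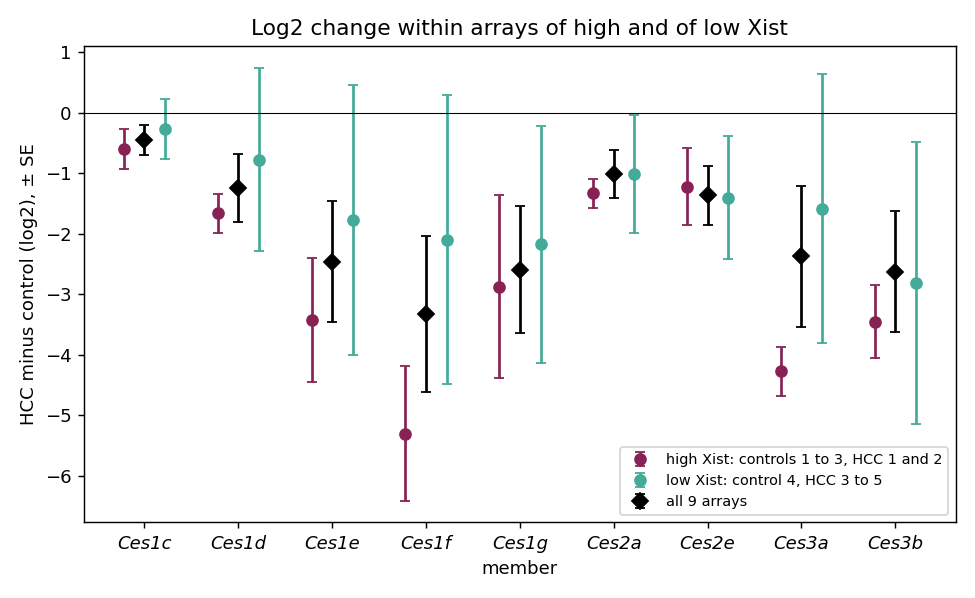
Log2 change (HCC minus control liver, ± SE) of each measured member over all 9 arrays (black diamonds), among arrays with high Xist (purple) and among arrays with low Xist (green). The change is below 0 in all 3 for each member, and the low-Xist estimates, with 1 control liver and HCC array 5 among 3 tumours, have the widest error for each member.

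The promoters of the members were set beside these profiles to show which copies are alike upstream of the gene. RefSeq windows (GRCm38.p6) were held for 7 of the 10 named genes, Ces2c among them, and not for Ces1d, Ces1f and Ces3a. The 250 bases before the annotated start are printed for 5 of them, 2 alike pairs and Ces3b, with the letters found by a search on both strands in capitals. Searched were the TATA box (TATAAA), a core motif of nuclear receptor sites (AGGTCA), part of an HNF1 site (GTTAAT), the core of a C/EBP site (TTGCNNAA) and an NRF2-type element (TGACNNNGC), none of which overlapped another in these windows. Letters are a match only and no binding was measured.

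Ces1c (chr8:93131284-93131533, minus strand): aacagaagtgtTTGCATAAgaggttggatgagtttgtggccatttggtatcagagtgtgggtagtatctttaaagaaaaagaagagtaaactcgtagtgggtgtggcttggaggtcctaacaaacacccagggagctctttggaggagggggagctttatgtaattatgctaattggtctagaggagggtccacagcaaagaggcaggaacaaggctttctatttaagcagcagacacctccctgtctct
Ces1g (chr8:93337210-93337459, minus strand): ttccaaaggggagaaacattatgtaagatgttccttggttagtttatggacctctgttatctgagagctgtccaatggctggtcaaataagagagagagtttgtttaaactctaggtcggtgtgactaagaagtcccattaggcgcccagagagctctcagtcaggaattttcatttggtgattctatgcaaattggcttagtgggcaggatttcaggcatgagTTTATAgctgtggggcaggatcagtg
Ces2a (chr8:104733753-104734002, plus strand): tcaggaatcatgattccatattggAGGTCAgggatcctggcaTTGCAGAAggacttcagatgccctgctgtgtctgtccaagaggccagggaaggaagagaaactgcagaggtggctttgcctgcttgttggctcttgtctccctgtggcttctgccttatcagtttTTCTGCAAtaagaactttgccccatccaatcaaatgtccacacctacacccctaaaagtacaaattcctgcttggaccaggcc
Ces2e (chr8:104926010-104926259, plus strand): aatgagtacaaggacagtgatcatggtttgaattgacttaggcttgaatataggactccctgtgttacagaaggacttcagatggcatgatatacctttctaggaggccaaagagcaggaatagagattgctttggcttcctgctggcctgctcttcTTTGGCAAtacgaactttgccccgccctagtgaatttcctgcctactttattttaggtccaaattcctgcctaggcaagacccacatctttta
Ces3b (chr8:105083505-105083754, plus strand): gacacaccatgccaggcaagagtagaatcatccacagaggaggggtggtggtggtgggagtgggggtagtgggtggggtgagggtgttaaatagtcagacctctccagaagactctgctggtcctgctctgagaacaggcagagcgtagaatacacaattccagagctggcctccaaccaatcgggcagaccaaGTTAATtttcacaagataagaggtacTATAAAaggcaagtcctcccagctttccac

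Upstream sequence aligned over longer stretches within a subfamily than between subfamilies, to an extent that varied by pair. In a global alignment with free ends, Ces2a and Ces2e were identical at 151 of 216 aligned bases, Ces2a and Ces2c at 164 of 243, and Ces1c and Ces1g at 136 of 208. Ces1e was less alike, with 54 of 88 aligned bases identical to Ces1c and 63 of 93 to Ces1g. The 15 pairs from different subfamilies had at most 37 aligned bases. The intensities of Ces1c and Ces1g over the 9 arrays had a correlation of 0.92, although on HCC array 3 Ces1g was below the control range and Ces1c within it. TATAAA stood in Ces3b and, read on the other strand, in Ces1g (2 of 7 windows, against 12.4% of all 32851 windows of this length), with the first letter at -30 and -26 from the start. TTGCNNAA stood in Ces1c, Ces2a and Ces2e (3 of 7, against 9.56%). AGGTCA stood in Ces2a alone (1 of 7, against 14.0%), and GTTAAT in Ces3b alone (1 of 7, against 6.43%). TGACNNNGC was in none of the 7, against 10.2%.

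The 7 other carboxylesterases with a probe set, of 9 listed, had a median log2 change of -0.10. In limma 0 of 7 passed and 0 had an unadjusted p below 0.05. Ces1b, which neighbours Ces1c, was 10.75, 10.40, 10.21 and 10.16 in control liver and 7.56, 9.96, 10.79, 8.97 and 10.90 in HCC. It was thus low on HCC arrays 1 and 4, like the members, and slightly below every control on HCC array 2. On HCC arrays 3 and 5 it was slightly above every control (log2 change -0.74, SE 0.63, limma adjusted p = 0.525). Ces2g was also lowest on HCC arrays 1 and 4 (7.67 and 8.32, against 8.55 to 9.20 in control liver). It was above every control on HCC arrays 3 and 5 (9.57 and 9.55), and its group means hardly differed (log2 change -0.10, limma adjusted p = 0.904). Ces1a, Ces2b, Ces2f, Ces4a and Ces5a had control means between 5.84 and 6.66, far below the lowest of a member (9.92, Ces2e). A fall from such low intensities may not show, so their small changes do not set them apart from the members. The smallest p of the list was that of Ces4a (-0.17, adjusted p = 0.271). The 12 measured genes outside the family that lie nearest to the Ces1 and the Ces2 to Ces4 groups, 3 on each side of each, were chosen after the data were seen. Their changes ran from -0.42 to 0.66, the latter for Lpcat2, and none passed in limma. Nudt21 (0.59, limma adjusted p = 0.0530) and Cbfb (0.54, limma adjusted p = 0.0791) were higher in HCC without overlap. None of the 12 was lower without overlap. At an unadjusted p below 0.05, 1 was lower and 3 were higher, against 9.85% and 10.5% of all genes.

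Other lipid and ester hydrolases were given from a list that was chosen with earlier results of these data known. Of 16 measured members of 17 listed, 0 passed in limma in either direction, and the median change was -0.42. At an unadjusted p below 0.05, 9 were lower and 0 higher, against 9.85% and 10.5% of all genes. Pon3, a paraoxonase with lactonase activity, had the smallest p (10.70 ± 0.046 and 9.99 ± 0.33, log2 change -0.71, adjusted p = 0.0655), with no overlap between the groups. Aadac, the arylacetamide deacetylase, an esterase of the same compartment with overlapping drug substrates, was 12.43 ± 0.070 and 12.04 ± 0.20 (-0.40, adjusted p = 0.103). Its highest tumour value was on HCC array 5 (12.30), just under the lowest control (12.38). Pnpla2, the adipose triglyceride lipase of lipid droplets, was 8.93 ± 0.12 and 8.71 ± 0.51 (-0.22, 95% interval -0.75 to 0.31). Without HCC array 5, Pon3 (adjusted p = 0.0219), Aadac (0.0302), the monoglyceride lipase Mgll (0.0021), Abhd6 (0.00845) and the endothelial lipase Lipg (0.0382) passed in limma. In that fit 2.79% of all genes passed as lower.

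In the list of VLDL assembly and lipid droplet genes all 14 measured had a negative change, as did 57.5% of all genes, with a median of -0.47. In limma 0 passed, and 6 were lower and 0 higher at an unadjusted p below 0.05 (9.85% and 10.5% of all genes). Plin5, a droplet coat protein, had the smallest p (7.08 ± 0.14 and 6.69 ± 0.16, -0.40, adjusted p = 0.0937). Mttp, the transfer protein that loads lipid onto apolipoprotein B, was 10.55 to 10.92 in control liver and 9.24, 10.38, 9.65, 9.10 and 10.39 in HCC, lowest on HCC arrays 4 and 1 as Ces1d was. Without HCC array 5, Mttp (adjusted p = 0.0458), Dgat2 (0.0239) and Plin5 (0.0473) passed in limma, where 2.79% of all genes passed as lower.

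**Figure D4:**
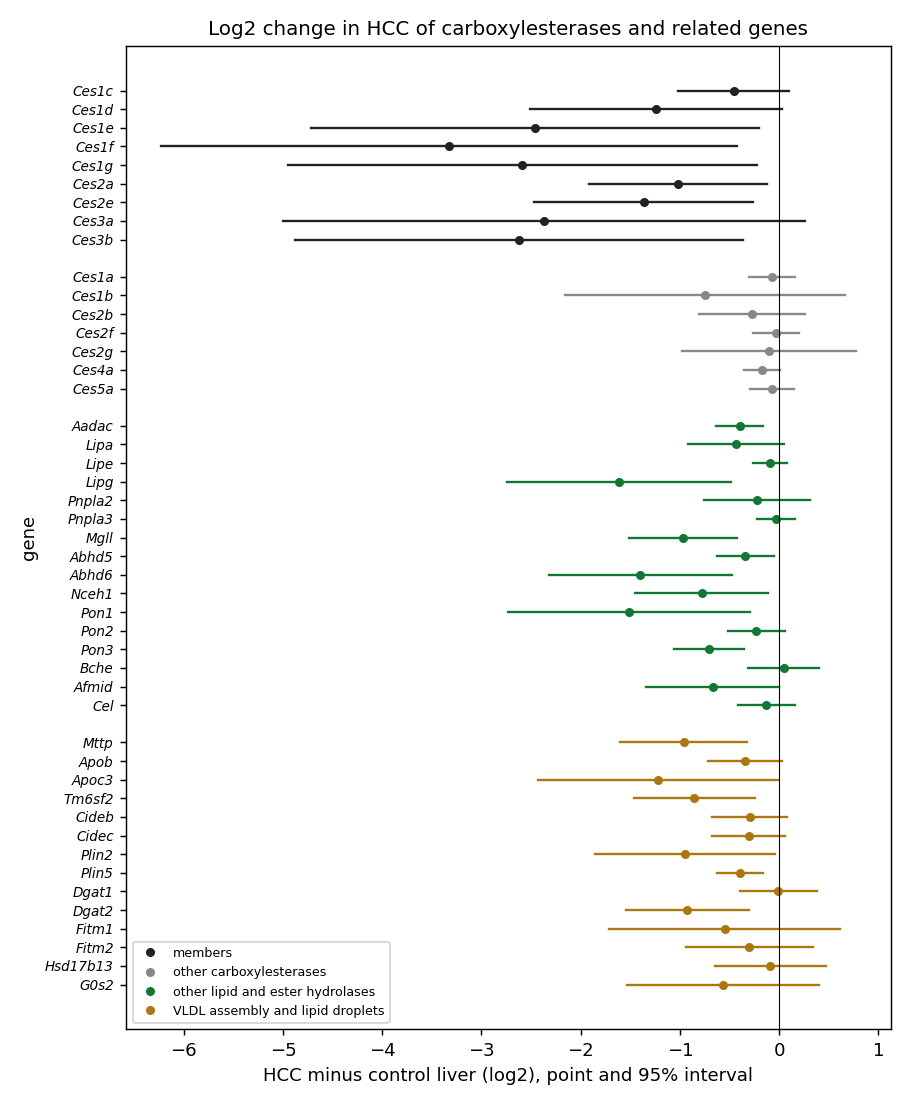
Log2 change (HCC minus control liver) with its 95% interval for the 9 measured members, the 7 other carboxylesterases, 16 other hydrolases and 14 genes of VLDL assembly and lipid droplets. The members range from -3.33 for Ces1f to -0.46 for Ces1c with long intervals. The other carboxylesterases lie near 0 apart from Ces1b, most of them from low intensities in control liver.

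Of the regulators of xenobiotic and lipid genes, 15 of 17 were measured, with a median change of -0.41. Of these 12 had a negative change (57.5% of all genes did) and 0 passed in limma. At an unadjusted p below 0.05, 6 were lower and 1 higher, against 9.85% and 10.5% of all genes. Nr1i3 encodes CAR, a nuclear receptor that induces drug-metabolising genes. It measured 11.77, 10.79, 10.82 and 10.79 in control liver and 5.82, 9.84, 7.24, 7.39 and 10.49 in HCC (log2 change -2.89, SE 0.88, adjusted p = 0.130; -3.47 and 0.0356 without HCC array 5). All 5 tumours were below the controls, HCC array 1 the furthest and HCC array 5 the least. Ppara, the receptor that governs fatty acid use, had the smallest p of the list (10.30 ± 0.28 and 9.13 ± 0.76, -1.17, adjusted p = 0.130) and was also lowest on HCC array 1 (7.98) and highest of the tumours on HCC array 5 (9.88). Nr1i2, which encodes the pregnane X receptor, was 8.61 ± 0.41 and 7.93 ± 0.43 (-0.68, adjusted p = 0.180). Hnf4a (10.11 ± 0.088 and 9.90 ± 0.44) and Cebpa (9.86 ± 0.16 and 9.95 ± 0.26), which maintain hepatocyte identity, had changes of -0.21 and 0.090. Of the 3 receptors that return proteins to the endoplasmic reticulum, 2 were measured and 0 passed in limma (0 at an unadjusted p below 0.05), with the smaller p for Kdelr1 (8.89 ± 0.36 and 9.11 ± 0.084, adjusted p = 0.438).

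Over the 9 arrays the members resembled one another in profile. The Pearson correlation of log2 intensity between 2 members ran from 0.53 (Ces2e and Ces3a) to 0.97 (Ces1e and Ces1f), with a median of 0.86 over 36 pairs. The arrays share the group difference and the low values of HCC arrays 1 and 4, so these are descriptions. Outside the family, the genes most like the mean profile of the members were the mitochondrial superoxide dismutase Sod2 (correlation 0.993), the cation exporter Slc47a1 (0.990), Dpm1 (0.989), Dhrs1 (0.989) and the cytochrome P450 Cyp2c23 (0.988). Cyp2c23 was 12.01 ± 0.24 in control liver and 9.95 ± 1.60 in HCC, and Sod2 10.66 ± 0.058 and 10.02 ± 0.49. For single members the most alike genes were Pcx for Ces1c, Gatb for Ces1d, Dpm1 for Ces1e, Slc22a30 for Ces1f, Hibch for Ces1g, Cd59b for Ces2a, Fmn1 for Ces2e, Nat8f2 for Ces3a and Pdk2 for Ces3b, with correlations of 0.981 to 0.997 over the 9 arrays and rank correlations of 0.50 to 1.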

How the data were processed

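The authors deposited linear intensities per probe set. RMA is the tool named in the submitters' processing notes, and GenePattern and R are named in the series' design text, without versions. RMA corrects background and quantile-normalises arrays, which can shrink differences of bright probe sets. Array medians were 91.5 to 101. The intensities were turned to log2 with no pseudocount. Of 35512 probe sets, 21789 had 1 symbol in the platform annotation; the brightest was kept per gene, which left 19938 genes. No member had more than 1 probe set, and Ces2c had none of its own. The groups were compared with limma 3.58.1 (R 4.3.3; lmFit, eBayes, two-sided, Benjamini-Hochberg over all genes), tested on simulated data. Scanner files, detection calls and protein sequences were not used here. The members and lists were chosen with earlier results of these data known. Named genes were all members, up to 2 genes per list that passed or else the one with the smallest p, Nr1i2, Nr1i3, Aadac, Pnpla2, Xist and the genes of most alike profile; other named genes were chosen after their values were seen. Alternatives were a filter on low values, other scalings, an added constant of 16, variance models, array weights, the mean of probe sets, the Xist level, the replicate number and leaving out each array. Python 3.11.15, pandas 2.3.3, matplotlib 3.10.9 and biopython 1.88 handled tables, plots and alignments.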

Additional observations from a re-analysis of the deposited data

Results flagged for a closer look

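Ces3a stood apart on 1 control array: control liver 4 measured 12.31, and the other 3 controls all measured 11.49. It was the only one of 18 groups checked (9 members in control liver and in HCC) in which 1 array lay this far from the rest. Chance gives about 1 in 20, so 1 flag is near what chance would give. Ces3b was also highest on control liver 4 (11.76 against 10.34 to 10.58 on the other controls) but was not flagged. Control liver 4 was also the control with low Xist (4.83).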

How the results depend on the processing

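The 9 members had a negative change in all 180 values recomputed, over 20 alternatives. Not all of these values were free to differ. The filter on low values, the other variance model and the mean of probe sets cannot alter the change of a member with 1 probe set. The replicate block gives the same changes as leaving out HCC array 5. The members were also selected on this contrast, so the shared sign is a description only. Each value moved by less than the pooled SD of its gene between arrays, a wide margin because the tumours spread widely. For Ces1f, -3.33 over all arrays and -5.30 among arrays with high Xist lay within it. The median of the members lay between -3.13 (without HCC array 5) and -1.67 (without HCC array 1) when 1 array was left out. It was -1.48 with array weights and -1.58 among arrays with low Xist. The number of members past the threshold was 0, with 0 to 2 when 1 array was left out. It was 1 with the replicate number as a block (Ces2a, adjusted p = 0.0224), where 220 genes passed as lower and 259 as higher, and 1 among arrays with high Xist (Ces3a), where 113 and 181 did. Of 54 related genes 0 passed, and 0 to 9 did when 1 array was left out. With the filter on low values 1 did, where 93 of 9969 genes passed as lower and 285 as higher. With array weights 4 did, where 246 genes passed as lower and 503 as higher. It was 4 with the replicate block and 3 among arrays with high Xist. Same-numbered control and HCC arrays had correlations of deviations of -0.0040, 0.324, -0.029 and -0.083. The labels do not say whether the numbers pair the arrays, and so few correlations cannot decide it. HCC array 5, alone with its number, does not inform the block fit. Calls over all genes went from 32 lower and 171 higher to 556 and 631 without HCC array 5, and to 0 lower without control array 1, 2 or 3. Only 4 and 5 arrays and the absence of detection calls limit the precision of low values.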
